A study of Mus musculus with 5 samples.

Results

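The receptors described here are those through which sensory neurons respond to the neurotrophins and to the glial cell line-derived neurotrophic factor (GDNF) family. They are encoded by 7 genes, Ntrk2, Ntrk3, Ngfr, Ret, Gfra1, Gfra2 and Gfra3, listed by name with earlier results of these data known. Each matched exactly 1 of the 17267 gene rows in a single-cell RNA count matrix of mouse lumbar dorsal root ganglia (DRG), the clusters of sensory neuron cell bodies beside the spinal cord. The cells came from 5 wild-type C57BL/6 mice, 3 male and 2 female, which were 18 weeks old and untreated. There was no second condition, so every comparison was between the cell types of these animals. Cells were captured in droplets, and the 3′ end of each transcript was tagged with a unique molecular identifier (UMI), so that a count stands for a captured molecule. Levels are given as CPM, counts per 1000000 UMIs of all genes, after the UMIs of all cells of 1 type in 1 library were summed.

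Trk receptors are receptor tyrosine kinases for neurotrophins: Ntrk2 encodes TrkB, which binds brain-derived neurotrophic factor (BDNF) and neurotrophin-4, and Ntrk3 encodes TrkC, which binds neurotrophin-3. Ngfr encodes p75NTR, a receptor without a kinase domain that binds all neurotrophins and alters the signalling of the Trk receptors. Ret is the receptor tyrosine kinase shared by the GDNF family, and it is engaged through membrane-anchored co-receptors, of which Gfra1 prefers GDNF, Gfra2 neurturin and Gfra3 artemin. In the DRG these receptors are known for dividing sensory neurons into classes that depend on different factors for survival, target innervation and mature properties. In RefSeq on GRCm38.p6, the mouse build of the deposited counts (mm10), Ntrk2 lies on chromosome 13 from 58806472 to 59133970, Ntrk3 on chromosome 7 from 78179986 to 78581034 and Ngfr on chromosome 11 from 95568818 to 95587698. Ret lies on chromosome 6 from 118151748 to 118197744, Gfra1 on chromosome 19 from 58235581 to 58455946, Gfra2 on chromosome 14 from 70890107 to 70979840 and Gfra3 on chromosome 18 from 34689898 to 34720387. The UMIs are given per gene, so receptor isoforms such as the kinase-containing and truncated forms of TrkB could not be told apart.

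The matrix held 3352 cells in 14 types that the authors had annotated, 12 of them neuronal. The names of the neuron types begin with NF for neurofilament-rich, NP for non-peptidergic and PEP for peptidergic neurons, followed by marker genes, and Th marks the tyrosine hydroxylase type. The 5 libraries, each taken as 1 mouse, held 164 to 1370 cells and 13050375 to 88886919 UMIs, with library medians of 52499.5 to 72840 UMIs per cell. Depth differed more between types, from a median of 16889 UMIs per endothelial cell and 17729 per satellite glial cell to 105150 per NP_Mrgprd neuron. In 9 of the 70 sums of a type in a library there were fewer than 10 cells, and 7 cell barcodes occurred in more than 1 library. The summed level of 5 neuron markers was 5775 to 10186 CPM over the 12 neuron types against 451 CPM in satellite glia and 482 CPM in endothelial cells. The summed level of 6 satellite glia markers was 90592 CPM in satellite glia, 156 to 731 CPM in neuron types and 5556 CPM in endothelial cells. The glial marker Cdh19 had no UMI in endothelial cells or in 7 of the 12 neuron types. The types were clustered by the authors on these same counts, so differences between them are descriptions of the annotated types and no independent evidence that the types exist.

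The 12 neuron types differed in which of the 7 receptors they held, as the map of mean levels shows. NF2_Ntrk2.Necab2 neurons were marked by Ntrk2 with Ngfr, NF_Calb1 by Ntrk2, Ntrk3, Ngfr, Ret and Gfra1, and NF_Pvalb by Ntrk3. In NF_Calb1 the levels of Ntrk2 and Ntrk3 were opposed over its cells. Among the other types, Ret came with Gfra2 in Th and NP_Mrgprd neurons, with Gfra1 in NP_Mrgpra3 neurons and with Gfra3 in the PEP1 types. In NP_Nts and PEP3_Trpm8, Ret and Gfra3 were found together in a part of the cells. PEP2_Htr3a.Sema5a had the highest Ngfr level. Satellite glia had Ntrk2 at a level next to that of NF2_Ntrk2.Necab2, and endothelial cells had no receptor called higher.

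**Figure D1:**
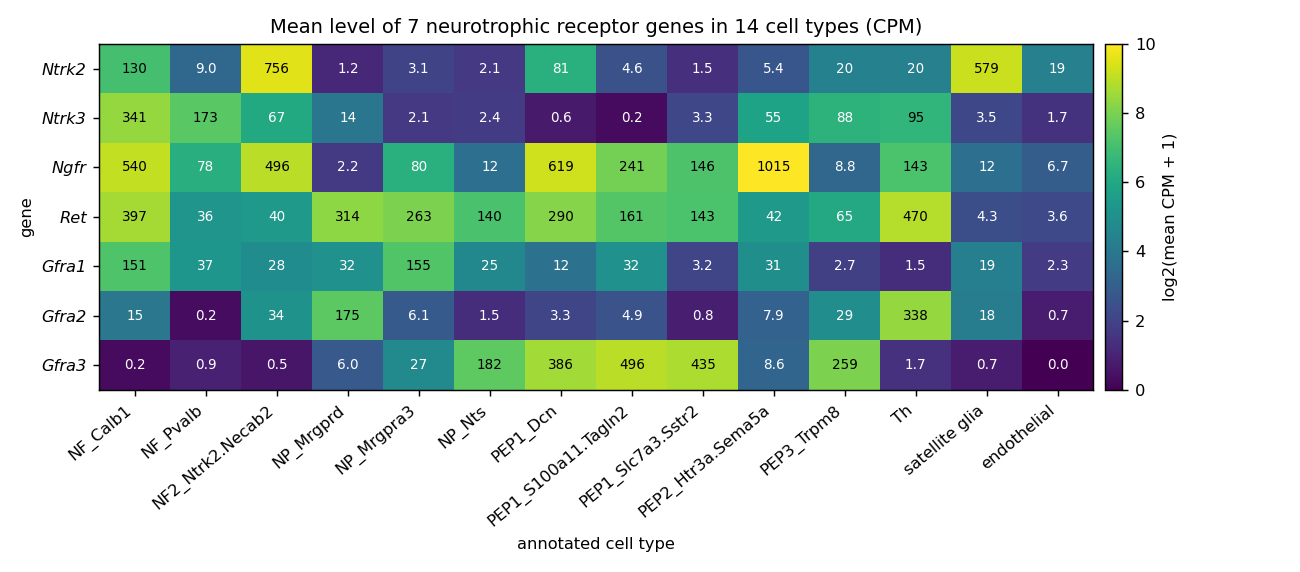
Heat map of the mean level over 5 libraries (CPM, printed in each cell; colour is log2 of the mean CPM + 1) of the 7 receptor genes (rows) in the 14 annotated types (columns). High values fall in different columns for each gene, for example 756 CPM of Ntrk2 in NF2_Ntrk2.Necab2 and 338 CPM of Gfra2 in Th.

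To ask in which types a receptor stood apart from the others, the summed UMIs were fitted with edgeR across all 11886 genes that passed a filter on low counts, and all 7 receptors passed. Each neuron type was set against the mean of the other 11 neuron types, and satellite glia and endothelial cells each against the mean of the 12 neuron types. A gene was called at a Benjamini-Hochberg adjusted p under 0.01 and a difference of at least 2-fold. Of the 98 tests of a receptor in a type, 31 were called higher and 35 lower, which is 31.6% and 35.7%. Over all genes and the same 14 contrasts, 12.6% of tests were called higher and 9.95% lower. The 7 receptors were listed with earlier results of these data known, so the difference between these shares is a description. Of these 66 calls and the 24 between related types given further on, 83 of the 90 held under every alternative fit, and the exceptions are named where they occur. Ntrk3 was called in the most types, 6 higher and 6 lower, and Gfra1 in the fewest, with 2 higher and 3 lower.

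NF_Calb1, NF2_Ntrk2.Necab2 and PEP1_Dcn had the most receptors called higher. In NF_Calb1 5 of the 7 receptors were higher and 1 lower, where 16.2% and 7.17% of all genes were. In NF2_Ntrk2.Necab2 4 were higher and 2 lower (all genes 10.2% and 7.71%), and in NF_Pvalb 1 was higher and 3 lower (14.6% and 10.8%). Among the NP types, 2 were higher and 3 lower in NP_Mrgprd (8.46% and 11.2%), 2 and 2 in NP_Mrgpra3 (7.4% and 7.95%), and 1 and 4 in NP_Nts (9.34% and 11.5%). Among the peptidergic types, PEP1_Dcn had 4 higher and 1 lower (10.9% and 2.58%). PEP1_S100a11.Tagln2 had 2 and 2 (8.37% and 3.35%), PEP1_Slc7a3.Sstr2 1 and 4 (10.2% and 5.5%), PEP2_Htr3a.Sema5a 2 and 2 (12.6% and 2.86%) and PEP3_Trpm8 3 and 3 (11% and 6.74%). Th neurons had 3 higher and 2 lower (9.47% and 8.2%). Satellite glia had 1 higher and 4 lower (25.8% and 24.9%), and endothelial cells 0 and 2 (21.4% and 28.9%), where the median log2 fold change of all genes was -0.60.

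**Figure D2:**
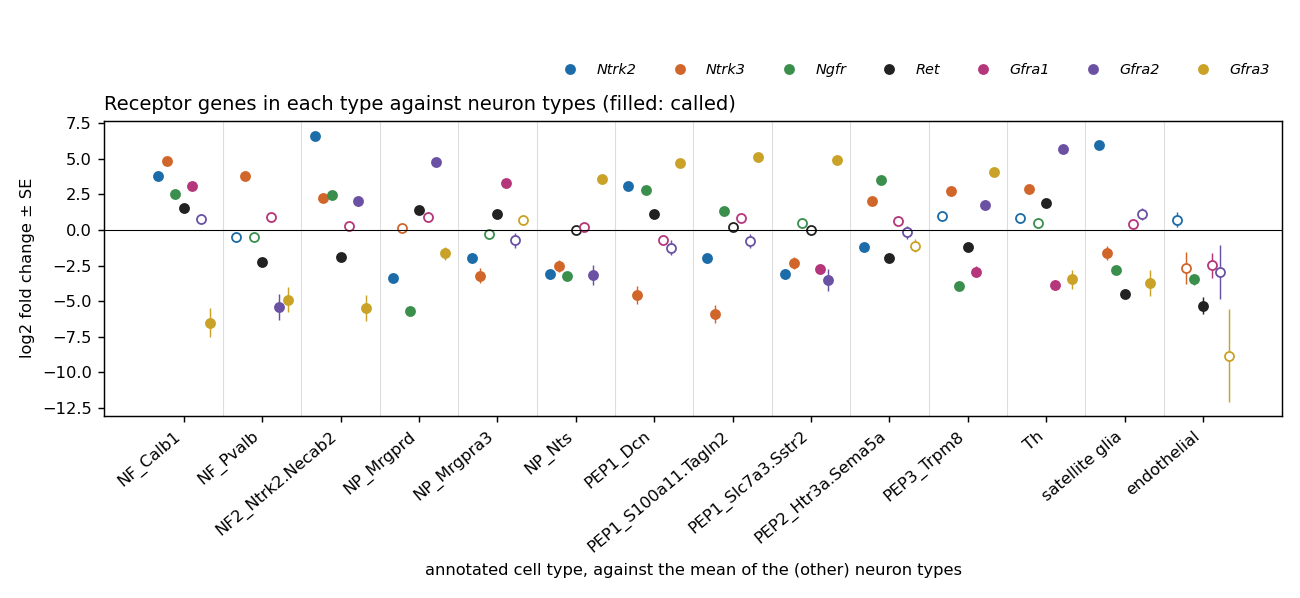
The log2 fold change with its SE (y axis) of each receptor in each type against the mean of the other neuron types, or of all neuron types for satellite glia and endothelial cells (x axis). Filled points were called at adjusted p under 0.01 and 2-fold, and the highest of them was Ntrk2 in NF2_Ntrk2.Necab2 at 6.61.

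Ntrk2, the receptor for BDNF, was highest in NF2_Ntrk2.Necab2 neurons, whose name carries the gene. Its level there was 659, 676, 942, 773 and 727 CPM in libraries 1 to 5, a mean of 756 ± 113 CPM (SD, n = 5). Satellite glia, the cells that wrap neuron cell bodies, were second with 646, 536, 549, 634 and 531 CPM, a mean of 579 ± 55.9 CPM. Libraries 1, 2 and 3 held only 3, 6 and 5 NF2_Ntrk2.Necab2 neurons. The neurons were above the glia in 5 of 5 libraries, by 0.38 ± 0.27 (SD) on the log2(CPM + 1) scale, and the values of both types did not overlap. In this and the following tests of the first against the second type, an exact two-sided sign-flip permutation test over 5 libraries cannot give a p below 0.0625. That p was reached for Ntrk2, with 0.109 after adjustment over the 7 receptors. In each of these tests the first and second type were picked by rank on the same values that were then tested. Their p-values are thus a description and no independent evidence of an order. Every one of the 58 NF2_Ntrk2.Necab2 neurons and of the 249 satellite glial cells had a UMI of Ntrk2. The median was 70 UMIs of Ntrk2 per neuron, in cells with a median of 96530.5 UMIs in all, and 10 per glial cell, in cells with a median of 17729.

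A pair of further neuron types followed at lower levels. NF_Calb1 neurons had 130 ± 19.2 CPM of Ntrk2, and PEP1_Dcn neurons had 71.9, 91.6, 117, 61.9 and 63.1 CPM, a mean of 81 ± 23.2 CPM. Each of these steps, from satellite glia to NF_Calb1 to PEP1_Dcn and on to PEP3_Trpm8 at 19.8 ± 6.97 CPM, had 1 direction in 5 of 5 libraries and a mean above its SD. None of the 9 steps further down the order was separated in this sense. Ntrk2 was called higher in NF2_Ntrk2.Necab2 (log2 fold change 6.61 ± 0.12 SE, adjusted p = 1.7e-55), satellite glia (5.97 ± 0.12), NF_Calb1 (3.77 ± 0.14) and PEP1_Dcn (3.09 ± 0.16). The shares of all genes called higher there were 10.2%, 25.8%, 16.2% and 10.9%. It was called lower in 6 types, NP_Mrgprd, NP_Mrgpra3, NP_Nts, PEP1_S100a11.Tagln2, PEP1_Slc7a3.Sstr2 and PEP2_Htr3a.Sema5a, where its means were 1.22 to 5.39 CPM. In PEP1_Dcn the UMIs of Ntrk2 were uneven, since 82 of the 163 cells, or 50.3%, had none and the 10% of cells with the most held 52.8% of them.

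The abundance of Ntrk2 in satellite glia was measured beside signs of glial RNA in the other types. Apoe, the most abundant of the glial markers, was found in neuron types at 0.052% to 0.677% of its glial level. At those shares, the glial Ntrk2 level would amount to 0.30 CPM in NF2_Ntrk2.Necab2 and 3.92 CPM in PEP1_S100a11.Tagln2, where 4.55 CPM were measured. In endothelial cells Apoe ranged from 526 to 12491 CPM over the 5 libraries. Its highest value there was in library 5, with 7 endothelial cells, which was also the library with the most Ntrk2, at 64.7 CPM against 0, 19.8, 7.38 and 4.96 CPM in libraries 1 to 4. For the highest types the same share came to 0.45 CPM in PEP1_Dcn, where 81 CPM were measured, and 1.11 CPM in NF_Calb1, where 130 CPM were measured. The markers did not have 1 common share: Glul, glutamine synthetase, stood at 6.51% to 30.6% of its glial level in neuron types, and Cdh19 or Kcnj10 at 0 in 7 of them. The part of glial RNA in the low Ntrk2 values was not tested.

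Ntrk3, the receptor for neurotrophin-3, was highest in NF_Calb1 and NF_Pvalb, both neurofilament-rich types. NF_Calb1 had 399, 377, 405, 290 and 234 CPM, a mean of 341 ± 75.6 CPM, and NF_Pvalb, the type named for the proprioceptor marker Pvalb, had 205, 185, 176, 153 and 147 CPM, a mean of 173 ± 23.8 CPM. All NF_Calb1 values lay above all NF_Pvalb values, and the difference within a library was 0.95 ± 0.19 on the log2(CPM + 1) scale (exact sign-flip p = 0.0625, adjusted 0.109). These are values of summed cells, and the cells of NF_Calb1 were uneven, as described further on. The median was 10 Ntrk3 UMIs per cell in both types, and 19 of 180 NF_Calb1 and 2 of 113 NF_Pvalb cells had none. NF_Pvalb was in turn above Th neurons, with 95.2 ± 15.4 CPM, in 5 of 5 libraries. Th, PEP3_Trpm8 (87.6 ± 22.4 CPM), NF2_Ntrk2.Necab2 (66.9 ± 21.8 CPM) and PEP2_Htr3a.Sema5a (55.5 ± 29.8 CPM) followed without a separated step between them.

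The next step down, to NP_Mrgprd at 14.3 ± 3.61 CPM, was separated. All of the first 6 types were called higher for Ntrk3, with log2 fold changes from 2.02 ± 0.19 in PEP2_Htr3a.Sema5a to 4.83 ± 0.15 in NF_Calb1. The gene was called lower in NP_Mrgpra3, NP_Nts, the 3 PEP1 types and satellite glia. In PEP1_S100a11.Tagln2 only 3 of 181 cells had a UMI, each a single one, for 0.24 ± 0.40 CPM. The call in satellite glia (log2 fold change -1.60 ± 0.50, adjusted p = 0.0035) was lost without library 2 (-1.44) and without library 4 (-1.32).

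Ntrk3 in PEP2_Htr3a.Sema5a was carried by a part of the cells. Of the 206 neurons 55.3% had a UMI, and the 10% of cells with the most held 68.7% of all Ntrk3 UMIs, with up to 86 in a cell. In NF_Pvalb, with a highest count of 43, 98.2% of cells had a UMI.

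Ngfr, the p75 receptor, was highest in PEP2_Htr3a.Sema5a, at 891, 1014, 1127, 918 and 1126 CPM, a mean of 1015 ± 111 CPM, and every one of the 206 cells had a UMI. PEP1_Dcn was second with 359, 947, 511, 629 and 651 CPM, a mean of 619 ± 217 CPM. Its lowest value, in library 1, came from 4 cells. PEP2_Htr3a.Sema5a was higher in 5 of 5 libraries, by 0.78 ± 0.48 (exact sign-flip p = 0.0625, adjusted 0.109). The ranges overlapped, since library 2 of PEP1_Dcn, at 947 CPM, exceeded the lowest values of PEP2_Htr3a.Sema5a.

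The neurofilament-rich types NF_Calb1 (540 ± 67.6 CPM) and NF2_Ntrk2.Necab2 (496 ± 83.8 CPM) came next, and neither step from PEP1_Dcn to NF2_Ntrk2.Necab2 was separated. PEP1_S100a11.Tagln2 (241 ± 36.3 CPM) was above PEP1_Slc7a3.Sstr2 (146 ± 30.6 CPM), and Th neurons (143 ± 17.8 CPM) were above NP_Mrgpra3 (80.3 ± 8.55 CPM), each in 5 of 5 libraries. Ngfr was called higher in the first 5 of these types, with log2 fold changes from 1.32 ± 0.13 in PEP1_S100a11.Tagln2 to 3.54 ± 0.10 in PEP2_Htr3a.Sema5a. It was called lower in NP_Mrgprd, NP_Nts, PEP3_Trpm8, satellite glia and endothelial cells. NP_Mrgprd neurons had the lowest level of all types, 0.83, 4.04, 1.74, 2.41 and 2.19 CPM, and a UMI in 12.9% of cells although they were the deepest type (log2 fold change -5.70 ± 0.22, adjusted p = 5.0e-35). In satellite glia, at a median of 17729 UMIs per cell, 15.7% of cells had a UMI, so the share in NP_Mrgprd was no higher than in a type of much lower depth.

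**Figure D3:**
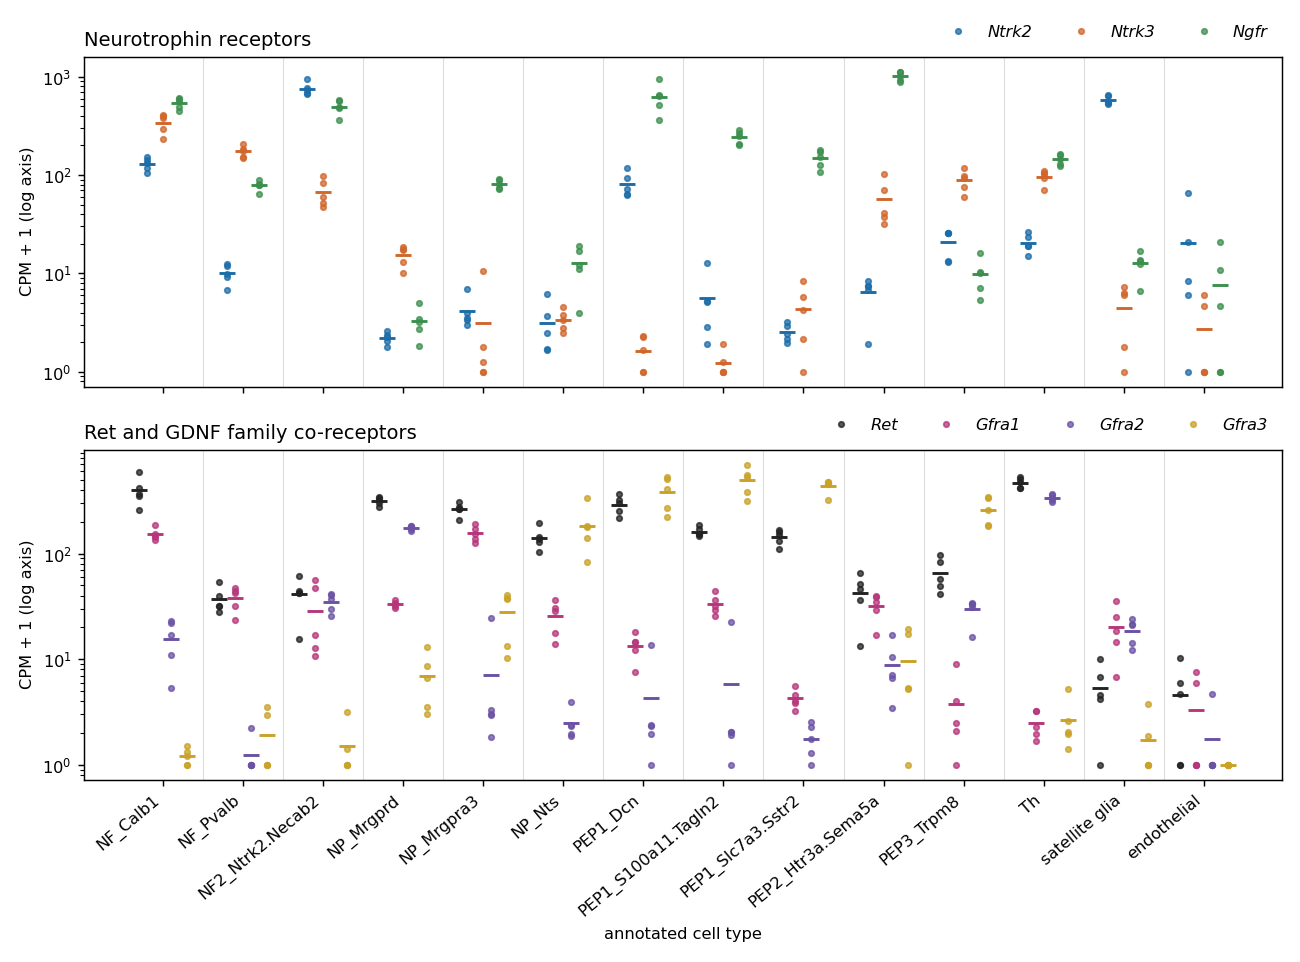
Level of each receptor in each library (points, CPM + 1 on a log axis) with the mean of 5 libraries (bars) in the 14 types, for the neurotrophin receptors (top) and for Ret and its co-receptors (bottom). Points at 1 are libraries without a UMI, and the spread over libraries differs, from 163 to 182 CPM for Gfra2 in NP_Mrgprd and from 359 to 947 CPM for Ngfr in PEP1_Dcn. The value of 359 CPM came from 4 cells.

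Ret, the signalling receptor of the GDNF family, was found in all neuron types. It was highest in Th neurons, at 420, 526, 421, 503 and 479 CPM, a mean of 470 ± 48.1 CPM. NF_Calb1 had 255, 597, 421, 365 and 347 CPM, a mean of 397 ± 127 CPM. Th was higher in 4 of 5 libraries (exact sign-flip p = 0.188, adjusted 0.262), so the order of these types did not exceed the spread. NP_Mrgprd (314 ± 28.8 CPM), PEP1_Dcn (290 ± 58.4 CPM) and NP_Mrgpra3 (263 ± 35.7 CPM) followed without separated steps.

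A lower tier of Ret began with PEP1_S100a11.Tagln2 (161 ± 16.9 CPM), PEP1_Slc7a3.Sstr2 (143 ± 22.5 CPM) and NP_Nts (140 ± 33.1 CPM). The lowest neuron types were PEP3_Trpm8, PEP2_Htr3a.Sema5a, NF2_Ntrk2.Necab2 and NF_Pvalb, at 64.6, 41.6, 40.2 and 35.9 CPM. Even NF_Pvalb was separated from satellite glia, which had 4.30 ± 3.34 CPM. Ret was called higher in the top 5 types, with log2 fold changes of 1.09 ± 0.15 to 1.90 ± 0.13. It was called lower in the lowest 4 neuron types and both non-neuronal types. The call in PEP1_Dcn (1.09 ± 0.15) was lost without library 1, when the fold change fell to 0.99 and so below 2-fold. Library 1 held 4 PEP1_Dcn cells and the highest Ret value of that type, 366 CPM.

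Gfra1, the co-receptor for GDNF, had 2 types at the top. NP_Mrgpra3 neurons had 190, 171, 124, 152 and 137 CPM, a mean of 155 ± 26.4 CPM, and NF_Calb1 neurons had 142, 186, 151, 146 and 132 CPM, a mean of 151 ± 20.3 CPM. The difference between them was 0.03 ± 0.26 and positive in 3 of 5 libraries (exact sign-flip p = 0.812), so they could not be ranked. Both were called higher, by 3.32 ± 0.15 and 3.12 ± 0.14 on the log2 scale, beside 7.4% and 16.2% of all genes. The step down to NF_Pvalb, at 37 ± 9.82 CPM, was 2.04 ± 0.42 and separated. The types from NF_Pvalb to PEP1_Dcn, satellite glia included, lay between 37 and 12.4 CPM. In NP_Mrgprd the level was low but even, at 29.7 to 35 CPM, with a UMI in 89.3% of cells. Gfra1 was called lower in Th (1.48 ± 0.72 CPM, log2 fold change -3.89 ± 0.34), PEP3_Trpm8 and PEP1_Slc7a3.Sstr2.

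Gfra2, the co-receptor for neurturin, was concentrated in Th neurons, at 308, 337, 323, 356 and 368 CPM, a mean of 338 ± 23.9 CPM. NP_Mrgprd neurons had 182, 182, 179, 163 and 171 CPM, a mean of 175 ± 8.36 CPM. The groups did not overlap, and Th was higher within a library by 0.94 ± 0.16 (exact sign-flip p = 0.0625, adjusted 0.109). All 232 Th neurons and 99.2% of NP_Mrgprd neurons had a UMI. NF2_Ntrk2.Necab2 (34 ± 6.8 CPM) and PEP3_Trpm8 (28.7 ± 7.6 CPM) came next, and the step from NP_Mrgprd to the former was 2.36 ± 0.29 on the log2(CPM + 1) scale. All of these 4 types were called higher, with log2 fold changes of 5.65 ± 0.18 in Th, 4.79 ± 0.19 in NP_Mrgprd, 2 ± 0.34 in NF2_Ntrk2.Necab2 and 1.76 ± 0.35 in PEP3_Trpm8. In NF_Pvalb a single cell held both UMIs of the type. The calls of lower Gfra2 in NP_Nts (25 UMIs) and PEP1_Slc7a3.Sstr2 (13 UMIs) were lost without library 4. Their log2 fold changes were then -3.11 and -3.02, still beyond 2-fold, but the adjusted p was no longer under 0.01.

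Gfra3, the co-receptor for artemin, was highest in the PEP1 types. PEP1_S100a11.Tagln2 had 533, 315, 695, 555 and 380 CPM (mean 496 ± 150 CPM), PEP1_Slc7a3.Sstr2 had 456, 318, 472, 479 and 450 CPM (mean 435 ± 66.4 CPM) and PEP1_Dcn had 527, 269, 504, 405 and 223 CPM (mean 386 ± 136 CPM). These 3 types overlapped, and the first exceeded the second in 3 of 5 libraries (exact sign-flip p = 0.5). PEP3_Trpm8, the cold-sensing type, followed at 259 ± 77.6 CPM and NP_Nts at 182 ± 92.6 CPM, and the first separated step was from NP_Nts to NP_Mrgpra3 at 26.9 ± 14.9 CPM. Gfra3 was called higher in those 5 types, with log2 fold changes of 3.58 ± 0.24 in NP_Nts to 5.14 ± 0.21 in PEP1_S100a11.Tagln2.

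In all 3 NF types few UMIs of Gfra3 were found, with 4 UMIs in 180 NF_Calb1 cells, 6 in 113 NF_Pvalb cells and 3 in 58 NF2_Ntrk2.Necab2 cells. In endothelial cells there were 0 UMIs of Gfra3 among 941065, which allows a level of up to 3.19 CPM by counting error alone. The calls of lower Gfra3 in NP_Mrgprd (log2 fold change -1.65 ± 0.45) and Th (-3.46 ± 0.65) were lost with sums of at least 10 cells only. The former was also lost without library 2 or library 4.

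Since Ret acts through a co-receptor, the cells with a UMI of both were counted. In Th neurons 231 of 232 cells had Ret and Gfra2, and in NP_Mrgprd neurons 892 of 900, with library means of 99.7% ± 0.75 and 98.9% ± 1.21 (SD, n = 5). Ret and Gfra1 were found together in 104 of 104 NP_Mrgpra3 neurons and in 171 of 180 NF_Calb1 neurons. Ret and Gfra3 were found together in 338 of 342 PEP1_Slc7a3.Sstr2, 174 of 181 PEP1_S100a11.Tagln2 and 131 of 163 PEP1_Dcn neurons. The same pair was found in 241 of 400 NP_Nts and 109 of 168 PEP3_Trpm8 neurons. Independent detection of both genes would give similar shares, for example 83.9% in PEP1_Dcn, where the library mean was 85%. Where a gene had a UMI in every cell, as Gfra3 in PEP1_Slc7a3.Sstr2, both shares are equal by construction. At such high shares the comparison cannot show whether detection of the genes was linked. The shares with both genes depended on depth. Shares expected with each cell thinned to 10000 UMIs were computed, without drawing UMIs. They were 92.5% for Ret and Gfra2 in Th neurons and 68.4% for Ret and Gfra1 in NP_Mrgpra3 neurons. For Ret and Gfra3 in PEP1_Slc7a3.Sstr2 neurons the expected share was 72.6%. In satellite glia, at lower depth, Ret and Gfra1 were found together in 2.41% of cells, with 0.66% expected after the same thinning.

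In 5 types no Ret cell lacked every co-receptor. This held for 896 NP_Mrgprd, 104 NP_Mrgpra3, 231 Th, 174 PEP1_S100a11.Tagln2 and 338 PEP1_Slc7a3.Sstr2 neurons with Ret. The co-receptor was single in 85.7% of the Ret cells of Th and 85.2% of those of PEP1_Slc7a3.Sstr2. In NP_Mrgprd 740 of 896 had 2, and Gfra1 with Gfra2 was found in 800 of its 900 cells. In PEP1_S100a11.Tagln2 112 of 174 had 2, and Gfra1 with Gfra3 was found in 121 of its 181 cells. In the other 7 neuron types some Ret cells had none of the 3. They were 24.7% of Ret cells in NF_Pvalb, 16.5% in NP_Nts, 15.7% in PEP2_Htr3a.Sema5a and 8.16% in NF2_Ntrk2.Necab2. In PEP1_Dcn, PEP3_Trpm8 and NF_Calb1 they were 4.43%, 3.10% and 1.13%. A missing UMI does not show that a transcript was absent.

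**Figure D4:**
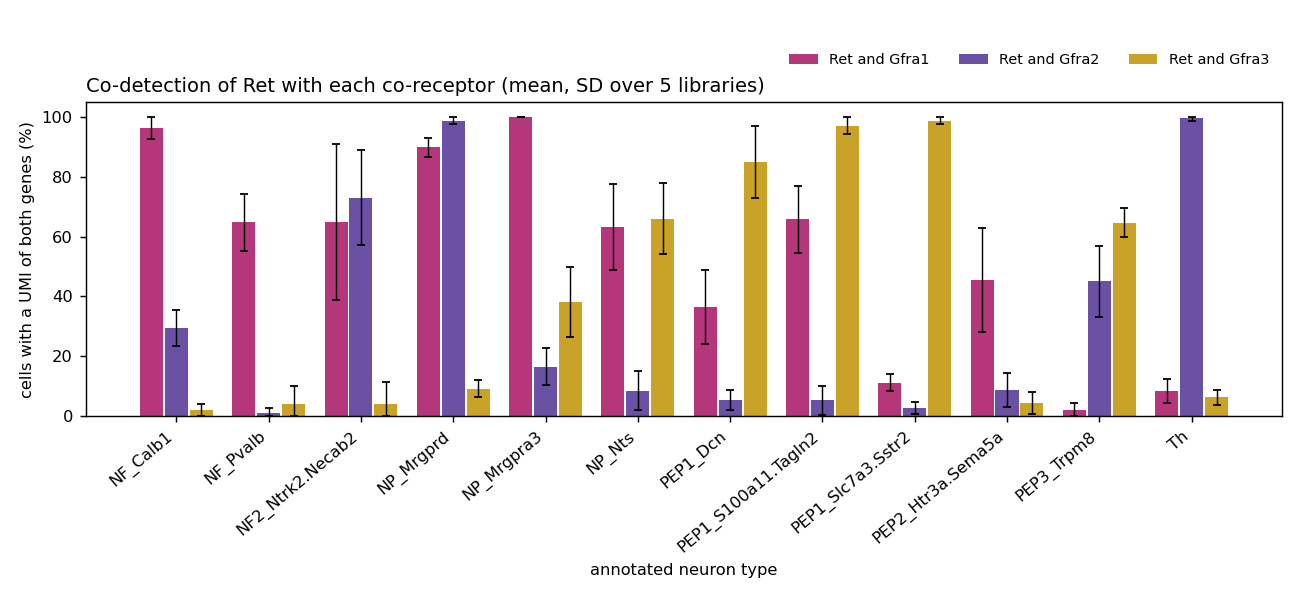
Share of cells with a UMI of Ret and of Gfra1, Gfra2 or Gfra3 (y axis, %) in the 12 neuron types (x axis), as the mean over 5 libraries with the SD as error bars, which end at 0 and 100. Ret is found with Gfra2 in nearly all Th and NP_Mrgprd neurons, with Gfra1 in all NP_Mrgpra3 neurons and with Gfra3 in nearly all PEP1_Slc7a3.Sstr2 neurons.

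Receptors also varied between the cells of a type, as in NF_Calb1. Over its 180 cells, the CPM of Ntrk2 and of Ntrk3 were opposed, with a Spearman rho of -0.67 and of -0.84 to -0.53 within the 5 libraries. In 76 cells, or 42.2%, Ntrk3 gave over 80% of the UMIs of both genes, and in 51 cells, or 28.3%, it gave under 20%. A further 39 cells lay between these limits, and 14 cells had fewer than 10 UMIs of both. The first 3 sets of cells occurred in all 5 libraries. Their median depths were alike, at 80872 UMIs with mostly Ntrk3, 78630 with mostly Ntrk2 and 81279 between them, against 49550.5 in the 14 cells with few of both. No doublet caller was run.

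The cells with mostly Ntrk3 held 660 CPM of Ntrk3 and 18 CPM of Ntrk2, and those with mostly Ntrk2 held 288 CPM of Ntrk2 and 23.1 CPM of Ntrk3. The former had 3.62 CPM of Calb1, the calcium-binding protein gene that names the type, and the latter 464 CPM. Gfra1 was at 201 CPM in the former and 96.1 CPM in the latter, and Gfra2 at 0.45 and 33.8 CPM. Ngfr (711 and 528 CPM) and Ret (436 and 342 CPM) were high in both. These sets were chosen on the receptors after the values were seen, so their levels are a description and no test was made.

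**Figure D5:**
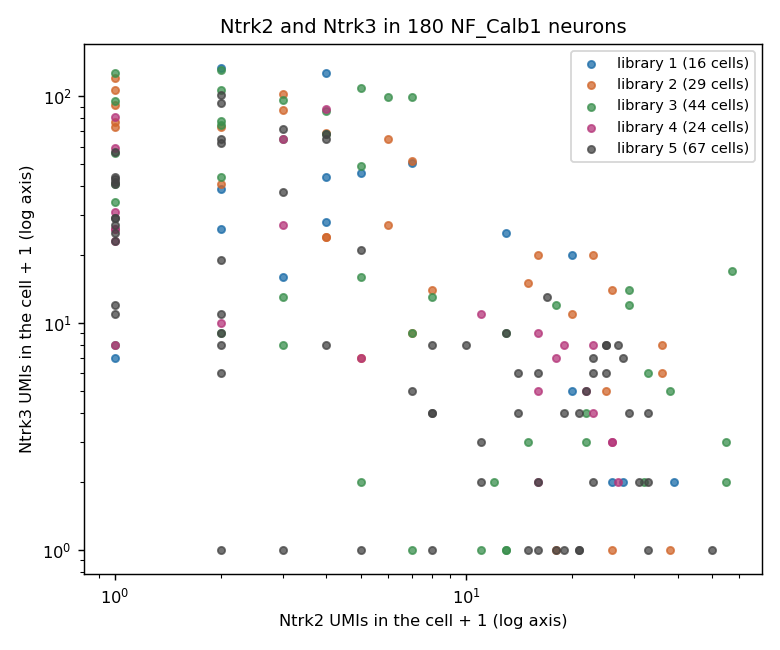
UMIs of Ntrk2 (x axis) and of Ntrk3 (y axis) in each of the 180 NF_Calb1 neurons, both + 1 on log axes, coloured by library. Cells of all 5 libraries fall along both arms, high in Ntrk3 with few Ntrk2 UMIs or high in Ntrk2 with few Ntrk3 UMIs.

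Of 104 relations between 2 receptors within a type, each receptor having a UMI in at least 25% of its cells, 20 had a Spearman rho above 0.4 in size. They share library and depth, and single cells are no replicates, so they are given without a test. Several positive ones joined Ret with a co-receptor: Ret and Gfra1 in NF2_Ntrk2.Necab2 (0.60, 58 cells), PEP2_Htr3a.Sema5a (0.55, 206 cells) and NF_Calb1 (0.53, 180 cells), Ret and Gfra2 in Th (0.48, 232 cells) and NF2_Ntrk2.Necab2 (0.48), and Ret and Gfra3 in PEP1_Dcn (0.44, 163 cells). Others did not: Ntrk3 varied with Gfra1 in NF_Calb1 (0.49) and NF2_Ntrk2.Necab2 (0.42), Ntrk2 with Gfra2 in NF_Calb1 (0.46) and Ngfr with Ret in Th (0.52). In NP_Mrgpra3 the rho of Ret and Gfra1 was 0.47 but ranged from -0.15 to 0.50 within libraries, and that of Ntrk2 and Ngfr in NF2_Ntrk2.Necab2 was 0.40 but -0.24 and 0.14 within the 2 libraries with at least 10 cells.

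Negative ones mostly involved Gfra3. It was opposed to Ngfr in all 3 PEP1 types, at -0.51 in PEP1_Dcn, -0.48 in PEP1_S100a11.Tagln2 and -0.41 in PEP1_Slc7a3.Sstr2, and negative in every library with at least 10 cells. In PEP3_Trpm8 Gfra3 was opposed to Ret (-0.47) and Gfra2 (-0.40), again negative in every such library. In PEP1_Dcn Ntrk2 was opposed to Ngfr (-0.42, and -0.60 to -0.37 within libraries). Some receptors also moved with the depth of the cell, as Ngfr in PEP1_Dcn (rho 0.34), Ret in NP_Mrgpra3 (-0.36) and Ntrk2 in NF2_Ntrk2.Necab2 (-0.50). The part of depth in the relations between receptors was not tested.

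Between 6 pairs of related types, fixed as pairs, 24 of 42 receptor tests were called, 11 higher and 13 lower in the first type of the pair, where 7.16% and 7.87% of all genes were. NF_Pvalb differed from NF_Calb1 in 5 receptors, each lower (all genes 4.37% higher and 7.26% lower): Ntrk2 (log2 fold change -3.93 ± 0.28 SE), Ngfr (-2.76 ± 0.20), Ret (-3.47 ± 0.25), Gfra1 (-2.03 ± 0.24) and Gfra2 (-5.68 ± 0.95). The difference in Ntrk3, -0.95 ± 0.22 with an adjusted p of 5.4e-04, was below 2-fold. NP_Mrgpra3 exceeded NP_Nts in Ngfr (2.73 ± 0.23) and Gfra1 (2.85 ± 0.24) and was lower in Gfra3 (-2.66 ± 0.37), where 8.44% and 6.86% of all genes were called. NP_Mrgprd and Th, both rich in Ret and Gfra2, differed in 4 other receptors: NP_Mrgprd was lower in Ngfr (-5.69 ± 0.24), Ntrk2 (-3.84 ± 0.29) and Ntrk3 (-2.55 ± 0.24) and higher in Gfra1 (4.42 ± 0.36), where 8.92% of all genes were higher and 12% lower. The differences in Ret (-0.43 ± 0.21, adjusted p = 0.075 in edgeR's quasi-likelihood test), Gfra2 (-0.79 ± 0.27, adjusted p = 0.0101) and Gfra3 (1.67 ± 0.57, adjusted p = 0.0118) were not called.

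In the next pair, NF2_Ntrk2.Necab2 exceeded Th in Ntrk2 (5.30 ± 0.24), Ngfr (1.79 ± 0.19) and Gfra1 (3.83 ± 0.44) and was lower in Ret (-3.51 ± 0.25) and Gfra2 (-3.35 ± 0.34), with 10.1% of all genes higher and 10.1% lower. NF_Calb1 exceeded PEP2_Htr3a.Sema5a in Ntrk2 (4.55 ± 0.26), Ntrk3 (2.57 ± 0.23), Ret (3.22 ± 0.23) and Gfra1 (2.27 ± 0.23) and was lower in Gfra3 (-4.95 ± 0.87), with 6.83% of all genes higher and 6.78% lower. PEP1_S100a11.Tagln2 and PEP1_Slc7a3.Sstr2, the last pair, differed in Gfra1, which was higher in the former (3.25 ± 0.34, adjusted p = 4.7e-12, means of 32.4 and 3.25 CPM), where 4.29% of all genes were higher and 4.25% lower. Their difference in Ntrk3 (-3.28 ± 0.92) rested on 3 UMIs in the former and was lost when any of libraries 1, 3, 4 and 5 was left out.

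The genes of the ligands differed in level, with Bdnf the most abundant. Among 8 ligand genes listed, Bdnf and Nrtn passed the filter, and the others with a row were at most 13.3 CPM in any type. Bdnf, described here after its values were seen, was highest in PEP1_Slc7a3.Sstr2 (586 ± 74.3 CPM), NP_Nts (453 ± 38.1 CPM) and PEP1_S100a11.Tagln2 (405 ± 48.4 CPM). In these 3 types it was called higher, and the level of its receptor gene Ntrk2 was 1.54, 2.14 and 4.55 CPM. NF2_Ntrk2.Necab2, highest in Ntrk2, had 88.3 ± 18.1 CPM of Bdnf. In Th neurons Bdnf was called lower (-3.88 ± 0.19, adjusted p = 5.9e-29). Nrtn, which encodes the Gfra2 ligand neurturin, was called higher in NF2_Ntrk2.Necab2 (4.59 ± 0.22, 36.6 ± 15.5 CPM) and was at 0.67 CPM in Th, the type highest in Gfra2. Gdnf was at 13.3 ± 9.34 CPM in satellite glia and at most 2.63 CPM in any neuron type.

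Of 61 listed pathway genes, 59 had a row and 49 passed the filter. In NF_Calb1 15 of the 49 were called higher and 9 lower (16.2% and 7.17% of all genes), in NF_Pvalb 13 and 15 (14.6% and 10.8%), and in NF2_Ntrk2.Necab2 13 and 7 (10.2% and 7.71%). In NF_Calb1 and NF_Pvalb the largest change was that of Runx3 (6.07 ± 0.22 and 8.57 ± 0.17), a transcription factor known for its role in TrkC neurons, whose mean was 34 CPM in the former and 149 CPM in the latter. Sortilin-related receptors were also among the 3 largest, with Sorcs3 at 4.98 ± 0.19 in NF_Calb1 and Sorcs1 at 5.26 ± 0.22 in NF_Pvalb. In the NP types, 6 were higher and 13 lower in NP_Mrgprd (8.46% and 11.2% of all genes), 10 and 5 in NP_Mrgpra3 (7.4% and 7.95%) and 9 and 17 in NP_Nts (9.34% and 11.5%). The largest there were Sorcs3 (-3.86 ± 0.71) in NP_Mrgprd, the ETS factor gene Etv4 (6.42 ± 0.43) in NP_Mrgpra3 and Lingo1 (-6.19 ± 0.40), a p75NTR-associated membrane protein gene, in NP_Nts.

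In the peptidergic types 15 were higher and 2 lower in PEP1_Dcn (10.9% and 2.58% of all genes), 10 and 5 in PEP1_S100a11.Tagln2 (8.37% and 3.35%) and 11 and 6 in PEP1_Slc7a3.Sstr2 (10.2% and 5.5%). In PEP2_Htr3a.Sema5a 10 were higher and 5 lower (12.6% and 2.86%), and in PEP3_Trpm8 8 and 8 (11% and 6.74%). In Th 15 were higher and 10 lower (9.47% and 8.2% of all genes), with Etv1 (-4.50 ± 0.37) and Lingo1 (3.78 ± 0.13) beside Bdnf the largest. In satellite glia 19 were higher and 15 lower (25.8% and 24.9% of all genes), with Sorcs2 (6.74 ± 0.27), Etv4 (6.55 ± 0.48) and Sorcs1 (6.08 ± 0.21) the largest. The median log2 fold change of the 49 lay between -0.74 in endothelial cells, where that of all genes was -0.60, and 0.48 in PEP1_Dcn, where that of all genes was 0.03.

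The genes whose level followed a receptor most closely over the 14 types were sought among 9208 genes with at least 20 CPM in a type, by Pearson r of log2(mean CPM + 1). They were Shc4 (0.93), Cox7a1 (0.88) and Gpc6 (0.81) for Ntrk2, Ppm1e (0.96), Scn1a (0.93) and Gm4980 (0.92) for Ntrk3, and Phactr2 (0.92), Akip1 (0.91) and Usp9x (0.90) for Ngfr. For Ret they were Mgat4a (0.91), Wtap (0.91) and Azi2 (0.91), for Gfra1 Ppp1r14b (0.85), Galc (0.82) and Ncbp1 (0.80), and for Gfra2 Pkp3 (0.92), Cdh11 (0.85) and Ormdl3 (0.83). Gfra3 was followed by Trpv1 (0.97), the capsaicin receptor gene, Msantd1 (0.95) and Zbtb11os1 (0.94). The best of 9208 genes over 14 points is high by selection, and the points share their libraries. Among themselves the receptors followed each other little, from -0.51 for Ntrk3 and Gfra3 to 0.46 for Ntrk3 and Gfra2.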

How the data were processed

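Single cells of lumbar DRG from 5 untreated C57BL/6 mice were sequenced by the authors with a droplet 3′ kit, aligned to mm10 and counted per gene with Cell Ranger, and the deposited matrix holds raw UMI counts. The cell type of each cell was taken from the annotation the authors deposited, where NF_Calb1 is spelled with a digit 1 in place of the letter l. Per the study, doublets were limited by the number of cells loaded, and no doublet caller or further filter on cells was run here. The number in each cell name gave 5 libraries, taken as the mice and numbered in ascending order. They could not be tied to the sex or label of a mouse. The 4 rows that name no gene held 6.4e-05% of the UMIs and were left out.

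UMIs were summed per type and library into 70 sums, and CPM were computed from them. The sums were fitted with edgeR 4.0.16 in R 4.3.3 (filterByExpr by type, TMM, quasi-likelihood test). In each contrast p-values were adjusted by Benjamini-Hochberg across all 11886 genes. DESeq2 1.42.0, no filter, sums of at least 10 cells, the library as a block, an adjusted p under 0.05 and leaving out each library were alternatives. Levels were compared on the log2(CPM + 1) scale, and a step between neighbouring types was called separated where it had 1 direction in 5 of 5 libraries and a mean above its SD. To compare detection, the share of cells expected to keep a UMI when thinned to 10000 UMIs was computed, and no cell was below that depth. For a pair of genes the probabilities of both in a cell were multiplied. The procedure was tested on simulated data. Types of a library come from the same mouse, so the library numbers pair the sums. The median correlation of deviations from the type means was 0.04, 0.13, 0.09, 0.09 and 0.14 within libraries 1 to 5 and -0.02 between different libraries.

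The receptors were named by gene, and with them up to 3 genes of largest change per contrast from the pathway list and the 3 genes most alike over types. The members and lists were chosen with earlier results of these data known. Intervals and limits cover counting error only.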

Additional observations from a re-analysis of the deposited data

Results flagged for a closer look

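Among the 98 sets of 5 libraries (7 receptors in 14 types), 13 had a library that stood apart from the others by Dixon's test. That test flags about 5% of sets when values are normally distributed. Most of the flagged sets lay at low levels, where that rate does not hold, so the number flagged is a description. The cause was not tested.

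In 2 of them the receptor was well expressed or evenly spread. Gfra3 in PEP1_Slc7a3.Sstr2 was lowest in library 2, at 318 CPM from 978 UMIs, with the next value at 450 CPM. Gfra2 in PEP3_Trpm8 was lowest in library 3, at 15.3 CPM against 30 CPM or more in the others. The other 11 concerned receptors at means of at most 6.14 CPM.

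In several of these, most UMIs of a library lay in a single cell. Gfra2 in NP_Mrgpra3 reached 23.6 CPM in library 2, where 31 of 32 UMIs came from 1 cell. Gfra2 in PEP1_S100a11.Tagln2 reached 21.3 CPM in library 2, where 29 of 46 UMIs came from 1 cell, and Gfra2 in PEP1_Dcn reached 12.7 CPM there, with 20 of 31 in 1 cell. Ntrk3 in NP_Mrgpra3 reached 9.60 CPM in library 2 from 13 UMIs of 1 cell. Ntrk2 in NP_Mrgpra3 reached 5.85 CPM in library 3, with 6 of 7 UMIs in 1 cell.

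The remaining values rested on at most 3 UMIs. Ntrk2 in PEP2_Htr3a.Sema5a was lowest in library 4, at 0.92 CPM against 5.82 CPM or more. Gfra2 in NP_Nts was highest in library 1, at 2.92 CPM from 2 UMIs, and Gfra3 in NF2_Ntrk2.Necab2 was highest in library 2, at 2.16 CPM from 2 UMIs. Gfra2 was at 1.25 CPM in library 4 of NF_Pvalb and at 3.69 CPM in library 3 of endothelial cells, with 0 in the other libraries of each. Ntrk3 in PEP1_S100a11.Tagln2 was highest in library 2, at 0.93 CPM.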

How the results depend on the processing

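The 31 higher and 35 lower calls per type became 32 and 37 with DESeq2, 32 and 36 without a filter, 33 and 33 with sums of at least 10 cells and 32 and 39 at an adjusted p under 0.05. The 11 higher and 13 lower calls between related types became 15 and 13, 12 and 13, 11 and 13, and 14 and 13. With the library as a replicate block they were 31 and 36 per type and 13 and 13 between related types, and the block ended none of the 90 single calls. Leaving out 1 library gave 31 to 34 higher and 33 to 37 lower calls per type, and 11 to 14 and 12 to 13 between related types. Of the 90 single calls 83 held in every alternative and none reversed.

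The highest levels lay at 709 to 780 CPM (Ntrk2), 325 to 368 CPM (Ntrk3), 987 to 1046 CPM (Ngfr), 456 to 482 CPM (Ret), 146 to 163 CPM (Gfra1), 331 to 346 CPM (Gfra2) and 446 to 541 CPM (Gfra3) without 1 library. The log2 difference of Gfra1 between NP_Mrgpra3 and NF_Calb1 reversed from 0.03 to -0.072 with sums of at least 10 cells. For this pair that setting left out library 1, where NP_Mrgpra3 had 4 cells and 190 CPM against 142 CPM in NF_Calb1. Why that library differed was not tested.

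Shares of cells with both genes fell when depth was lowered, by construction, and the thinned shares are expected values. Thinned to 10000 UMIs, their means over libraries were 91.7% for Ret and Gfra2 in Th, 76.4% in NP_Mrgprd, 69.9% for Ret and Gfra3 in PEP1_S100a11.Tagln2, 61.2% for Ret and Gfra1 in NF_Calb1, 69% in NP_Mrgpra3, 98.4% for Ntrk2 and Ngfr in NF2_Ntrk2.Necab2 and 63.9% for Ntrk3 and Ngfr in NF_Calb1. With at least 2 UMIs of each gene, 97.7% was found for Ret and Gfra2 in Th, 91.9% for Ret and Gfra3 in PEP1_S100a11.Tagln2, 92.7% and 99.2% for Ret and Gfra1 in NF_Calb1 and NP_Mrgpra3, and 82.1% for Ntrk3 and Ngfr in NF_Calb1. Without 1 library the unthinned shares were 99.6% to 100% for Ret and Gfra2 in Th and 98.6% to 99.3% in NP_Mrgprd, 96.5% to 98% for Ret and Gfra3 in PEP1_S100a11.Tagln2, 95.6% to 97.8% for Ret and Gfra1 in NF_Calb1 and 90.7% to 95.1% for Ntrk3 and Ngfr in NF_Calb1.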
